A study of Mus musculus with 15 samples.

Results

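The enzymes of heme biosynthesis were examined in peripheral blood RNA of mice. The 8 genes Alas2, Alas1, Alad, Uros, Urod, Cpox, Ppox and Fech were chosen by name for their steps in the pathway, out of 55416 genes counted. Earlier results of these data were known when they were chosen. All 8 were found and passed the filter on low counts in each comparison. Blood came from 15 C57BL/6 mice, with 1 library per mouse. The groups were 5 untreated mice without surgery, 5 mice given αCTLA-4, an antibody that blocks an inhibitory receptor of T cells, with early neck dissection (ND), and 5 mice given αCTLA-4 with late ND. ND removes the lymph nodes and lymphatics that drain the tongue. Per the labels, all mice, untreated ones included, carried tumors of the line 4MOSC1, a mouse oral squamous cell carcinoma, placed in the tongue and grown for 10 days, and the ND groups had 2 doses of antibody. The sources differ on whether late ND mice had already been operated on when they were bled. Below, "late ND" and "after late ND" name the group, not a state at sampling, and "fell" and "rose" name differences between groups. The design asks how blood differs when the draining lymphatics are taken away at once or after a delay.

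Heme is built from glycine and succinyl-CoA along a chain of enzymes that starts in the mitochondrion, passes through the cytosol and ends in the mitochondrion, where iron is inserted. The opening step, made by ALA synthase, sets the rate and has a pair of genes, Alas2 in red cell precursors and Alas1 in other cells. Mature red cells have no nucleus, and the RNA they carry is what is left from their precursors, so in whole blood the transcripts of the pathway come from young red cells, platelets and leukocytes together. Fewer cells of a type and less RNA per cell cannot be told apart in such samples.

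Between 5527108 and 13924361 counts per library fell on genes, with 5862888 to 10796099 in untreated mice, 5527108 to 7182346 after early ND and 7849602 to 13924361 after late ND. The adult hemoglobin genes (Hbb-bs, Hbb-bt, Hba-a1, Hba-a2) took 31.6% to 61.7% of gene counts in untreated mice, 38.3% to 64.1% after early ND and 14.9% to 29.3% after late ND. Levels below are CPM, counts per 1000000 of a library's gene counts, after scaling by the trimmed mean of M values (TMM), which evens out most genes between libraries. The TMM factors were 0.425 to 1.34 in untreated mice, 0.502 to 1.17 after early ND and 1.24 to 1.92 after late ND, so the factors of the late ND libraries lay above those of every early ND library. Because of these factors the CPM do not have the same sum in each library. The gene of 18S ribosomal RNA, Rn18s-rs5, set 3 libraries apart (late 2, late 3 and untreated 2), at 313 to 766 CPM by library total, where the other 12 had 13402 or more. Called values of the enzymes and the counts of the gene lists are therefore also given without those 3. For Alas1 and the ratios of Alas2, the values late against early ND are likewise given without those 3 libraries. Without them edgeR called 4 of 13440 genes late against early ND and 0 of 13051 genes against untreated mice, at an unadjusted p under 0.05 for 3213 and 1917.

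Alas2 held nearly all of the pathway's reads. It made up 86.4% to 93.1% of the counts of the 8 genes in a library, and with Fech 93.4% to 99.6%. Raw counts ran from 33454 to 128173 for Alas2 and from 2720 to 9989 for Fech, but only from 18 to 198 for Alad and from 18 to 180 for Uros.

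The 250 bases before the start of the canonical transcript are shown for Alas2 and Urod, 2 of the 3 members that were lower in late ND than in untreated mice. Both windows lie outside the gene's own exons. They were read from the GRCm39 genome at chrX:149330121-149330370 (plus strand) and chr4:116851611-116851860 (minus strand) and are written 5′ to 3′ in the direction of the gene. Capitals mark a word bound by GATA factors.
Alas2: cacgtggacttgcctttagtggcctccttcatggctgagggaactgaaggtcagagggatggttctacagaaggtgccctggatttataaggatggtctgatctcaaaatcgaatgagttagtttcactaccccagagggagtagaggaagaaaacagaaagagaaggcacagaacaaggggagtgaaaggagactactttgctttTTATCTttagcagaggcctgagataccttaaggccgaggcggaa
Urod: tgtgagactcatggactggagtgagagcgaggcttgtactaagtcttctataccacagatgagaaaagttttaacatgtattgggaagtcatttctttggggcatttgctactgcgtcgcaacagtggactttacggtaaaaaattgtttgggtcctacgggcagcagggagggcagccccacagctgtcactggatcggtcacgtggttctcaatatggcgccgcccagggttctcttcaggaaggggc
The word AGATAA, the word AGATAG, the word TGATAA and the word TGATAG were searched on both strands as words of GATA factors. CCACACCC was searched likewise as a word of KLF factors. The Alas2 window held 1 match, TTATCT, the reverse complement of AGATAA, which began 44 bases before the start. The Urod window held no match, which says only that these letters are not in this window. Of 21757 windows of 250 bases before protein-coding genes, 26.2% held a GATA word and 3.56% held CCACACCC, so a GATA word is common in windows of this length.

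The members lie on different chromosomes of GRCm39 except for Alad and Urod. Alas2 lies on the plus strand of chromosome X (149330371 to 149353634). Alas1 is on the minus strand of chromosome 9 (106110642 to 106135734). Alad is at 62423283 to 62438587 on the minus strand of chromosome 4, and Urod is at 116844840 to 116851610 on the same strand. Uros occupies 133285987 to 133311801 on the minus strand of chromosome 7. Cpox lies on the plus strand of chromosome 16 (58490414 to 58537999). Ppox is on the minus strand of chromosome 1 (171100969 to 171109385) and Fech on that of chromosome 18 (64585985 to 64623322). Another gene is annotated opposite part of the exons of 6 members, and reads of such a pair can be told apart only by counting with strand, a setting not given in the sources used here. The share of exon bases so covered was 57.9% for Urod (opposite Zswim5), 40.8% for Ppox (B4galt3), 26.2% for Alas1 (4930500F10Rik), 13.8% for Alas2 (Apex2 and Mir3620), 2.96% for Cpox (Gpr15) and 0.054% for Uros (Bccip).

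Levels were compared between genes per kilobase of canonical transcript. The order in untreated mice began with Alas2 at 8619 ± 5828 CPM per kb (SD, n = 5) and Fech at 199 ± 133 CPM per kb (SD, n = 5). Ppox (17.8), Urod (15.4), Alas1 (11.05), Cpox (3.72), Uros (1.90) and Alad (1.87 mean CPM per kb) followed. The ranges of neighbours in this order were separate from Alas2 to Ppox, between Alas1 and Cpox, and between Cpox and Uros, while Ppox and Urod, Urod and Alas1, and Uros and Alad overlapped. After early ND the order was the same, at 8394 CPM per kb for Alas2 and 235 for Fech, and every pair of neighbours from Ppox downward overlapped. After late ND Alas2 stood at 1813 ± 494 CPM per kb (SD, n = 5) and Fech at 38.6 ± 13.9 CPM per kb (SD, n = 5). There Alas1 (11.3) came before Urod (6.86 CPM per kb), with overlapping ranges. Below Fech the order depended on the length used. Per kilobase of all annotated exons, Urod (9.89) came before Ppox (6.27) in untreated mice, and Alad (1.23) before Uros (0.958 mean CPM per kb). On that scale Urod (4.40) came before Alas1 (3.89) after late ND. Alas2 and Fech, genes of the first and last steps, were the most abundant of the 8 in each group with either length.

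**Figure D1:**
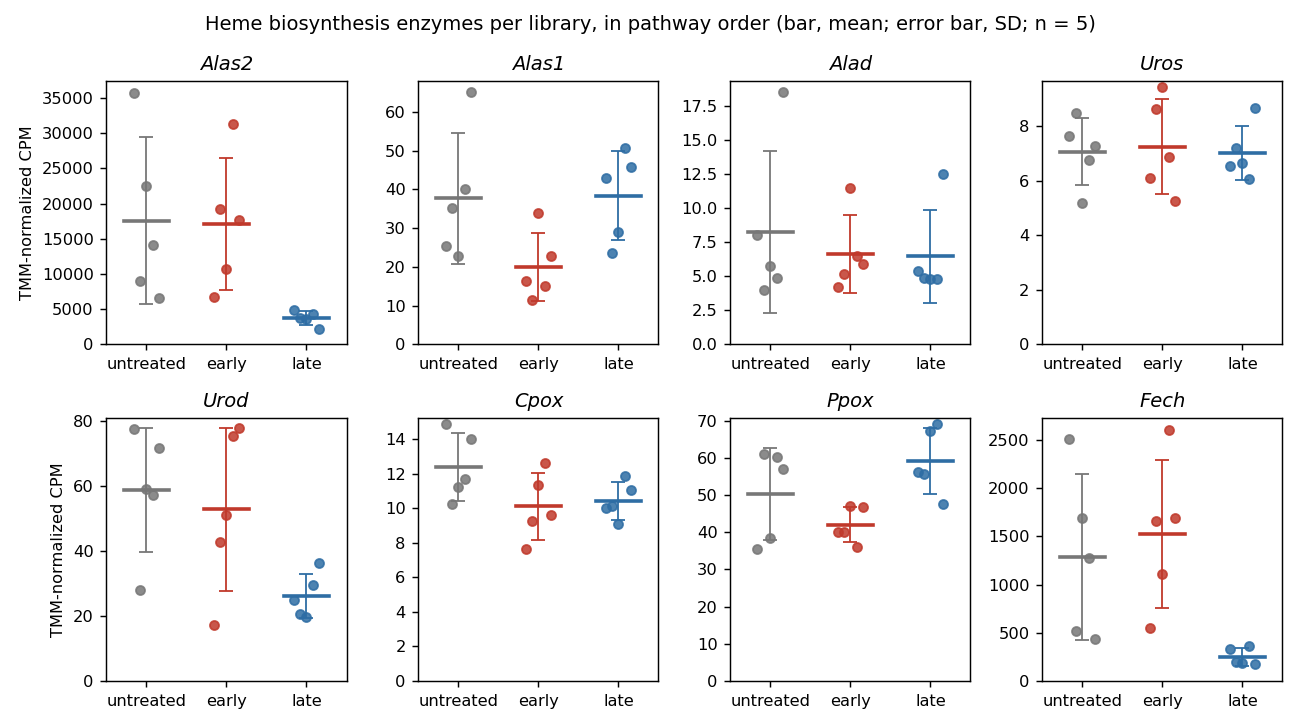
TMM-normalized CPM (y axes, linear, from 0, each gene on its own scale) of the 8 enzymes in untreated, early ND and late ND mice, with 1 point per library, a bar at the mean and an error bar of 1 SD (n = 5). For Alas2 and Fech all 5 late ND points lie below every other point, with Alas2 at 4800 CPM or less, and for Ppox all 5 lie above the early ND points.

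Late ND mice had lower levels of Alas2 and Fech, genes of the first and last steps, than early ND mice. Alas2 was 4.53-fold lower and Fech 5.99-fold lower, while Ppox, the enzyme before the last, was 1.43-fold higher. The other 5 members did not pass the test, among them Alas1, the other gene of the first step (0.94 on the log2 scale, edgeR adjusted p = 0.0725). The calls, 3 of 8, stand beside a background of 4.98% of 13315 genes called in this comparison (edgeR's quasi-likelihood test, Benjamini-Hochberg adjusted p under 0.05), 2.5% higher and 2.48% lower. The split of 1 higher and 2 lower depended on scaling. It was 0 and 2 with DESeq2 size factors, and 5 and 2 when library totals replaced TMM, where the median over all genes moved from 0.014 to 0.86 on the log2 scale.

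Alas2, the erythroid ALA synthase, had 35745, 8919, 22530, 14046 and 6544 CPM in untreated mice 1 to 5. After early ND it had 6727, 19182, 10712, 31246 and 17621 CPM, and after late ND 4800, 3679, 3615, 4259 and 2113 CPM. The highest late ND mouse lay below the lowest mouse of either other group, and the early ND and untreated mice spread over the same range. Late ND mice had a mean of 3693 ± 1006 CPM (SD, n = 5), early ND mice one of 17098 ± 9396 CPM (SD, n = 5) and untreated mice one of 17557 ± 11872 CPM (SD, n = 5). Against early ND the log2 fold change was -2.18 (standard error 0.44, edgeR adjusted p = 0.0215), and 0.436% of the genes tested had a lower one. The groups did not overlap, as held for 2.93% of 13221 genes in the downward direction. Against untreated mice it was -2.25 (standard error 0.48, edgeR adjusted p = 0.0303). Both comparisons use the same late ND libraries. As a share of all gene counts, with no TMM scaling, Alas2 took 0.359% to 0.701% after late ND, 0.782% to 1.72% after early ND and 0.650% to 1.52% in untreated mice. With library totals the log2 fold change was -1.17 against early ND (edgeR adjusted p = 0.00190) and -1.03 against untreated mice (edgeR adjusted p = 0.0197).

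The call on Alas2 changed with single mice. Against early ND the adjusted p was 0.0604 without late 3, 0.0518 without late 4 and 0.0511 without late 5 (edgeR), with log2 fold changes of -2.20, -2.27 and -2.06. Without the libraries poor in 18S sequence the log2 fold change was -2.20 against early ND (edgeR adjusted p = 0.0704) and -2.43 against untreated mice (edgeR adjusted p = 0.137). Apex2, which lies opposite Alas2, had 5061 to 20495 counts per library and a log2 fold change of -2.17 against early ND (edgeR adjusted p = 0.0126). Reads of either gene may have been counted for the other or for neither, which was not tested.

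Alas1, the ALA synthase of other cells, had 25.3, 35.1, 22.7, 40.1 and 65.3 CPM in untreated mice, 16.4, 11.4, 33.9, 15.2 and 22.9 CPM after early ND and 42.9, 23.7, 28.9, 50.7 and 45.8 CPM after late ND. Of the late ND mice 3 lay above every early ND mouse, and late ND and untreated mice overlapped fully. The log2 fold change of late against early ND was 0.94 (standard error 0.29, unadjusted p = 0.00630, edgeR adjusted p = 0.0725), which did not pass. It passed without early 3 (1.24, edgeR adjusted p = 0.0156) or late 2 (1.06, edgeR adjusted p = 0.0459), and with library totals it was 1.73 (edgeR adjusted p = 1.50e-04). It was 1.20 without the libraries poor in 18S sequence (edgeR adjusted p = 0.0561). Against untreated mice the value was 0.0013 (standard error 0.28, edgeR adjusted p = 0.999).

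The ratio of Alas2 to Alas1 within a library needs no scaling between libraries. It was chosen with earlier results of these data known, and it uses the same Alas2 counts as the test above. Untreated mice 1 to 5 had 1411, 254, 991, 351 and 100.2 Alas2 counts per Alas1 count. Early ND mice had 409, 1678, 316, 2062 and 769, and late ND mice 112, 155, 125, 83.9 and 46.1. All 5 late ND mice lay below every early ND mouse, but untreated mouse 5 lay among the late ND mice. On the log2 scale the late ND mice had a ratio of 6.59 ± 0.68 (SD, n = 5). The early ND mice had 9.65 ± 1.19 (SD, n = 5) and the untreated mice 8.70 ± 1.53 (SD, n = 5). Late and early ND differed by -3.06 (95% interval -4.6 to -1.5, two-sided exact permutation p = 0.00794, the smallest that 5 against 5 allow, adjusted p = 0.0476 over 6 tests of 2 ratios and 3 pairs of groups). This is an 8.32-fold lower ratio. Late ND and untreated mice differed by -2.10 (95% interval -3.95 to -0.275, exact permutation p = 0.0317, adjusted p = 0.0952), which did not pass, except without untreated 5 (-2.62, exact permutation adjusted p = 0.0238). Early ND and untreated mice differed by 0.95 (95% interval -1.255 to 2.97, exact permutation p = 0.294, adjusted p = 0.587). The call of late against early ND was lost without late 4 (-3.01) or late 5 (-2.79), each with an exact permutation adjusted p of 0.0952. Without the libraries poor in 18S sequence the difference was -3.41 (exact permutation adjusted p = 0.107, where 3 against 5 allow no unadjusted p below 0.0179).

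Set against hemoglobin, the product that takes up most of a red cell's heme, Alas2 did not differ between the groups beyond the spread between mice. Untreated mice had 15.5 to 37.6 Alas2 counts per 1000 hemoglobin counts (median 25.3), early ND mice 20.4 to 34.4 (median 25.0) and late ND mice 18.02 to 40.1 (median 24.1). The log2 ratio of untreated mice was -5.39 ± 0.47 (SD, n = 5), that of early ND mice -5.27 ± 0.28 (SD, n = 5) and that of late ND mice -5.25 ± 0.44 (SD, n = 5). Late and early ND differed by 0.017 (95% interval -0.515 to 0.59, exact permutation p = 0.944, adjusted p = 0.944). Late ND and untreated mice differed by 0.14 (95% interval -0.585 to 0.81, exact permutation p = 0.643, adjusted p = 0.810), and early ND and untreated mice by 0.12 (95% interval -0.46 to 0.71, exact permutation p = 0.675, adjusted p = 0.810). Hemoglobin genes have near-identical copies, and alignments to more than 1 place were not counted for genes. Such alignments made up 64.8% to 73.1% of a library's total in untreated mice, 66.4% to 75.2% after early ND and 44.1% to 57.9% after late ND. Hemoglobin counts are therefore uncertain, by an amount that may differ between the groups. The part of this in the ratios to hemoglobin was not tested.

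**Figure D2:**
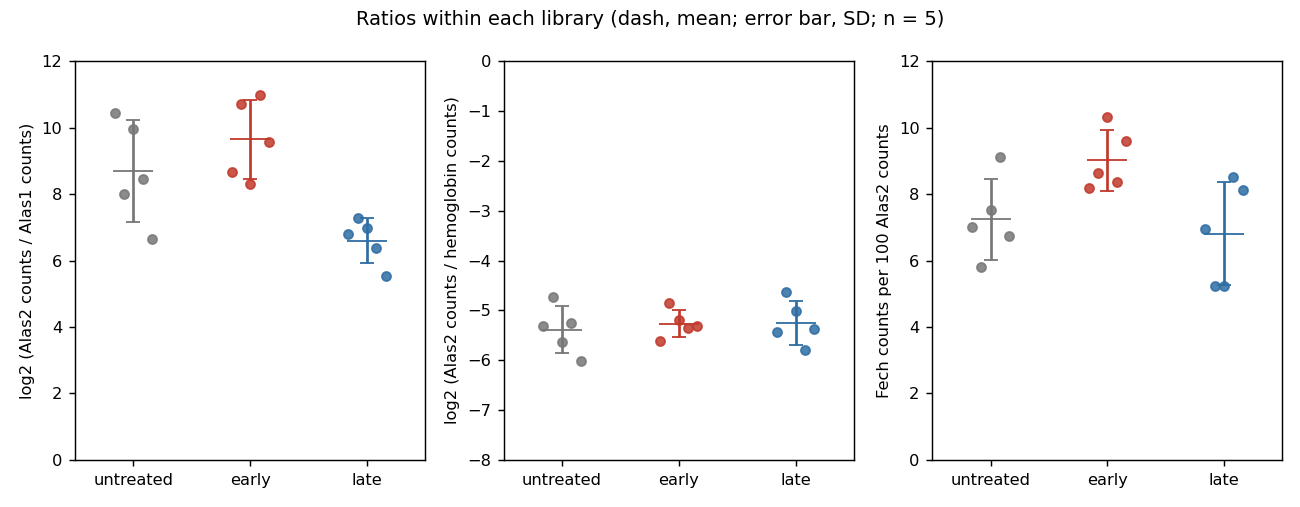
Ratios of raw counts within each library: log2 of Alas2 over Alas1 (left), log2 of Alas2 over the summed hemoglobin genes (middle) and Fech counts per 100 Alas2 counts (right), with 1 point per library, a dash at the mean and an error bar of 1 SD (n = 5). On the left the late ND points, with a mean of 6.59, lie below all early ND points, and in the middle the 3 groups share 1 range.

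Alad, which joins ALA into porphobilinogen in the cytosol, had 8.04, 3.97, 5.75, 4.90 and 18.5 CPM in untreated mice. It had 4.20, 5.13, 11.5, 6.49 and 5.89 CPM after early ND and 5.35, 4.85, 4.77, 4.80 and 12.5 CPM after late ND. Apart from 1 high mouse in each group the levels lay together, and the groups overlapped. The log2 fold change was -0.031 against early ND (standard error 0.34, edgeR adjusted p = 0.975) and -0.34 against untreated mice (standard error 0.43, edgeR adjusted p = 0.762). The enzyme of the step between Alad and Uros was not analysed here.

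Uros, which closes the porphyrin ring, had means of 7.06 CPM in untreated mice, 7.25 CPM after early ND and 7.02 CPM after late ND. It ranged over 5.18 to 8.49 CPM in untreated mice, 5.24 to 9.44 CPM after early ND and 6.06 to 8.65 CPM after late ND. Its log2 fold changes were -0.030 against early ND (standard error 0.18, edgeR adjusted p = 0.950) and -0.021 against untreated mice (standard error 0.17, edgeR adjusted p = 0.980).

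Urod, which removes carboxyl groups to give coproporphyrinogen, had 77.6, 28.1, 59.0, 57.3 and 71.6 CPM in untreated mice. After early ND it had 17.1, 42.9, 51.0, 75.4 and 77.9 CPM, and after late ND 24.8, 20.5, 19.6, 29.5 and 36.3 CPM. Early mouse 1 was the lowest of all 15, below every late ND mouse, and 3 of the late ND mice lay below every untreated mouse. Urod fell against untreated mice by 1.16 on the log2 scale (2.23-fold, standard error 0.25, edgeR adjusted p = 0.0311). Against early ND the log2 fold change was -0.98 (standard error 0.33, unadjusted p = 0.0110, edgeR adjusted p = 0.0965), which did not pass, but without early 1 it was -1.22 (edgeR adjusted p = 0.0108). The call against untreated mice was lost without the libraries poor in 18S sequence (-1.14, edgeR adjusted p = 0.104) and in a single fit of all 15 libraries (-1.16, edgeR adjusted p = 0.0794), and the value against early ND without the former was -0.79 (edgeR adjusted p = 0.250). With library totals the values were -0.13 against untreated mice (edgeR adjusted p = 0.729) and 0.0029 against early ND (edgeR adjusted p = 0.992). Zswim5, opposite Urod, had 0 to 7 counts per library.

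Cpox, which makes protoporphyrinogen in the mitochondrion, had 10.2 to 14.9 CPM in untreated mice, 7.64 to 12.6 CPM after early ND and 9.07 to 11.9 CPM after late ND. The log2 fold change was 0.086 against early ND (standard error 0.15, edgeR adjusted p = 0.777). Against untreated mice it was -0.23 (standard error 0.14, edgeR adjusted p = 0.426), with 3 late ND mice below every untreated mouse.

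Ppox, which oxidizes protoporphyrinogen to protoporphyrin, had 35.4, 61.0, 38.6, 60.2 and 56.9 CPM in untreated mice. After early ND it had 40.1, 40.1, 46.9, 36.1 and 46.9 CPM, and after late ND 56.2, 55.8, 67.4, 69.1 and 47.5 CPM. The lowest late ND mouse was higher than the highest early ND mouse, as held for 3% of genes in the upward direction, though late 5 only just did, and untreated mice spanned both groups. The log2 fold change was 0.51 against early ND (standard error 0.13, edgeR adjusted p = 0.0432), and 0.22 against untreated mice (standard error 0.17, edgeR adjusted p = 0.580). The call against early ND was lost without early 1, 2 or 4 or late 1, 2, 3 or 4, with log2 fold changes from 0.43 to 0.51 and edgeR adjusted p from 0.0509 to 0.126. It was also lost without the libraries poor in 18S sequence (0.45, edgeR adjusted p = 0.114) and in a single fit of all 15 libraries (0.49, edgeR adjusted p = 0.0730). B4galt3, opposite 40.8% of the exon bases of Ppox, had 90 to 1622 counts per library and a log2 fold change of 0.71 against early ND (edgeR adjusted p = 0.0419), and its part in the Ppox counts was not tested.

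Fech, ferrochelatase, which places iron in the ring, had 2509, 519, 1695, 1279 and 440 CPM in untreated mice. It had 551, 1655, 1107, 2608 and 1690 CPM after early ND and 333, 192, 189, 362 and 172 CPM after late ND. The highest late ND mouse lay below the lowest mouse of the other groups. The log2 fold change was -2.58 against early ND (standard error 0.38, edgeR adjusted p = 0.0119), with 0.150% of genes lower, and -2.37 against untreated mice (5.16-fold lower, standard error 0.45, edgeR adjusted p = 0.0242). Against early ND Fech passed with each mouse left out in turn (highest edgeR adjusted p = 0.0391), unlike Alas2 and Ppox. Without the libraries poor in 18S sequence it was -2.40 (edgeR adjusted p = 0.0509) against early ND and -2.38 (edgeR adjusted p = 0.128) against untreated mice. With library totals it was -1.61 (edgeR adjusted p = 1.18e-04) and -1.17 (edgeR adjusted p = 0.0143).

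Fech stayed close to Alas2 in every library, at 5.82 to 9.11 Fech counts per 100 Alas2 counts in untreated mice, 8.19 to 10.3 after early ND and 5.23 to 8.51 after late ND. Over all 15 libraries this ratio spanned 1.98-fold, where Alas2 CPM spanned 16.9-fold and Fech CPM 15.2-fold. Per 1000000 hemoglobin counts, Alas1 had 11.9 to 87.0 counts after early ND, 17.9 to 155 in untreated mice and 208 to 523 after late ND. Ppox had 28.2 to 122 after early ND, 25.0 to 257 in untreated mice and 272 to 609 after late ND, and Cpox had 9.88 to 29.1, 10.1 to 43.1 and 48.3 to 126. These 3 were above both other groups in all 5 late ND mice, as held for 39% of 13315 genes on this scale, on which a lower share of hemoglobin raises every gene. Uros, at 25.6 to 98.9 after late ND and 5.37 to 24.2 after early ND, was above early ND only, so that 4 of 8 members lay wholly above early ND, where 68.3% of genes did. The ranges of Alad, Urod, Fech and Alas2 overlapped between late and early ND. Of these ratios to hemoglobin only that of Alas2 was tested.

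In late ND against untreated mice, the members called were Alas2, Urod and Fech, all lower, 3 of 8 where 3% of 13547 genes were called (0.989% higher and 2.01% lower, edgeR). Alas2 and Fech also did not overlap between the groups, as held for 3.03% of 13306 genes in the downward direction. With library totals the 3 calls were Alas2 and Fech, lower, and Ppox, higher (1.03, edgeR adjusted p = 0.0229), at a median of 0.91 over all genes. These calls changed with single mice too. None of the 8 was called without untreated 3 or without any 1 late ND mouse, and only Fech without untreated 1 or untreated 4, though the 3 genes had an unadjusted p under 0.05 in each of these fits. In those fits the log2 fold change of Alas2 lay from -1.81 to -2.35 (edgeR adjusted p from 0.0531 to 0.0849) and that of Urod from -1.04 to -1.32 (edgeR adjusted p from 0.0621 to 0.0879), and where Fech was lost it lay from -2.25 to -2.55 (edgeR adjusted p from 0.0534 to 0.0712).

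In early ND against untreated mice, 0 of the 8 members were called by edgeR, against 0% of 12151 genes, 539 of which had an unadjusted p under 0.05. DESeq2 also called 0 members. The smallest adjusted p over all genes was 0.938. No member separated the groups, as 0.23% of genes did downward and 0.346% upward. Alas1, the 1 member with an unadjusted p under 0.05 by either tool, had a log2 fold change of -0.92 (standard error 0.33, unadjusted p = 0.0145, edgeR adjusted p = 0.938), with 3 early ND mice below every untreated mouse. The other members lay from -0.30 (Alad and Cpox) to 0.24 (Fech, standard error 0.49), and Alas2 was at -0.041 (standard error 0.56). Differences within standard errors of that size were not detectable with these mice.

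**Figure D3:**
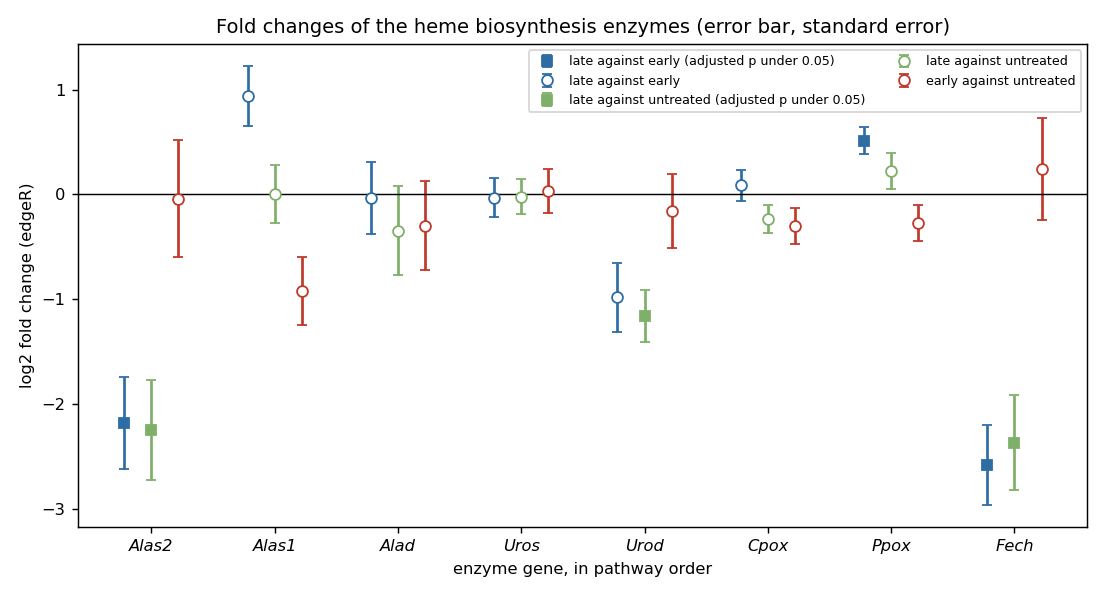
Log2 fold changes (y axis, edgeR) of the 8 enzymes in pathway order for late against early ND (blue), late ND against untreated (green) and early ND against untreated mice (red), with error bars of 1 standard error and filled squares for an adjusted p under 0.05. Alas2 and Fech stand at -2.18 and -2.58 in the blue series, Urod at -1.16 is filled only in the green series, and no red point is filled.

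Genes that serve the pathway were read from lists of the same topic, chosen by function. Late against early ND, edgeR called 2.5% of all 13315 genes higher and 2.48% lower, and 3163 had an unadjusted p under 0.05. Late ND against untreated mice it called 0.989% of 13547 genes higher and 2.01% lower, and 2299 had an unadjusted p under 0.05. The counts of the lists below stand beside these shares. Of the mitochondrial carriers and membrane proteins for heme synthesis, 3 of 8 tested fell after late against early ND and 0 rose (list median -0.043, all genes 0.014). Slc25a39, a carrier linked to mitochondrial glutathione, fell by 2.13 on the log2 scale (edgeR adjusted p = 0.0126). Fam210b fell by 1.78 (edgeR adjusted p = 0.0236), and Slc25a37, mitoferrin, the iron importer of red cell precursors, fell by 1.37 (edgeR adjusted p = 0.0182). The largest positive value was 0.46 for Tmem14c, which helps move porphyrins across the inner membrane (edgeR adjusted p = 0.0788, not called). Against untreated mice 2 of 8 fell.

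Of the iron-sulfur cluster assembly genes, whose product Fech itself carries, 4 of 9 fell and 0 rose (list median -0.20). They were Isca1 (-2.21, edgeR adjusted p = 0.0126), Glrx5 (-2.16, edgeR adjusted p = 0.0126), Hscb (-2.03, edgeR adjusted p = 0.0126) and the scaffold Iscu (-1.71, edgeR adjusted p = 0.0141). All 9 values were negative, down to the smallest, -0.011 for the chaperone Hspa9 (edgeR adjusted p = 0.972). Against untreated mice 4 of 9 fell. The 5 members not called lay from -0.20 to -0.011.

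Of the genes for control of ALA synthase and heme sensing, 0 of 8 were called by edgeR (list median -0.080). An unadjusted p under 0.05 was found for 2 of the 8, beside 3163 of 13315 over all genes. The extremes were Bach1, a repressor that heme inactivates (0.65, edgeR adjusted p = 0.0680), and Nr1d1, a heme-binding nuclear receptor (-0.22, edgeR adjusted p = 0.739). Of the genes for heme export, uptake and breakdown, 3 of 9 fell and 0 rose (list median 0.087). Those that fell were Slc48a1, a heme transporter (-2.08, edgeR adjusted p = 0.0126), Blvrb, a biliverdin reductase (-1.94, edgeR adjusted p = 0.0250), and the heme-binding Hebp1 (-1.86, edgeR adjusted p = 0.0178). Hmox1, the inducible heme oxygenase that degrades heme, was at 1.02 (edgeR adjusted p = 0.0841), which did not pass. Against untreated mice 3 of 9 fell.

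Of the erythroid transcription factors, 1 of 6 tested fell, Lmo2 (-1.13, edgeR adjusted p = 0.0317), and 0 rose (list median -0.36). Gata1, the factor that drives Alas2 in red cell precursors, was at -0.48 (edgeR adjusted p = 0.159), and Nfe2, with the value nearest to 0, at -0.0086 (edgeR adjusted p = 0.991). Against untreated mice 1 of 6 fell. In early ND against untreated mice edgeR called 0 genes of these 5 lists, and 0 had an unadjusted p under 0.05. EdgeR called 0 genes of the 5 lists in any comparison without the libraries poor in 18S sequence. Those with an unadjusted p under 0.05 late against early ND were 4 of the transport, 4 of the iron-sulfur, 2 of the control, 5 of the export and 2 of the transcription factor genes. Over all genes 3213 of 13440 had one in that fit.

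**Figure D4:**
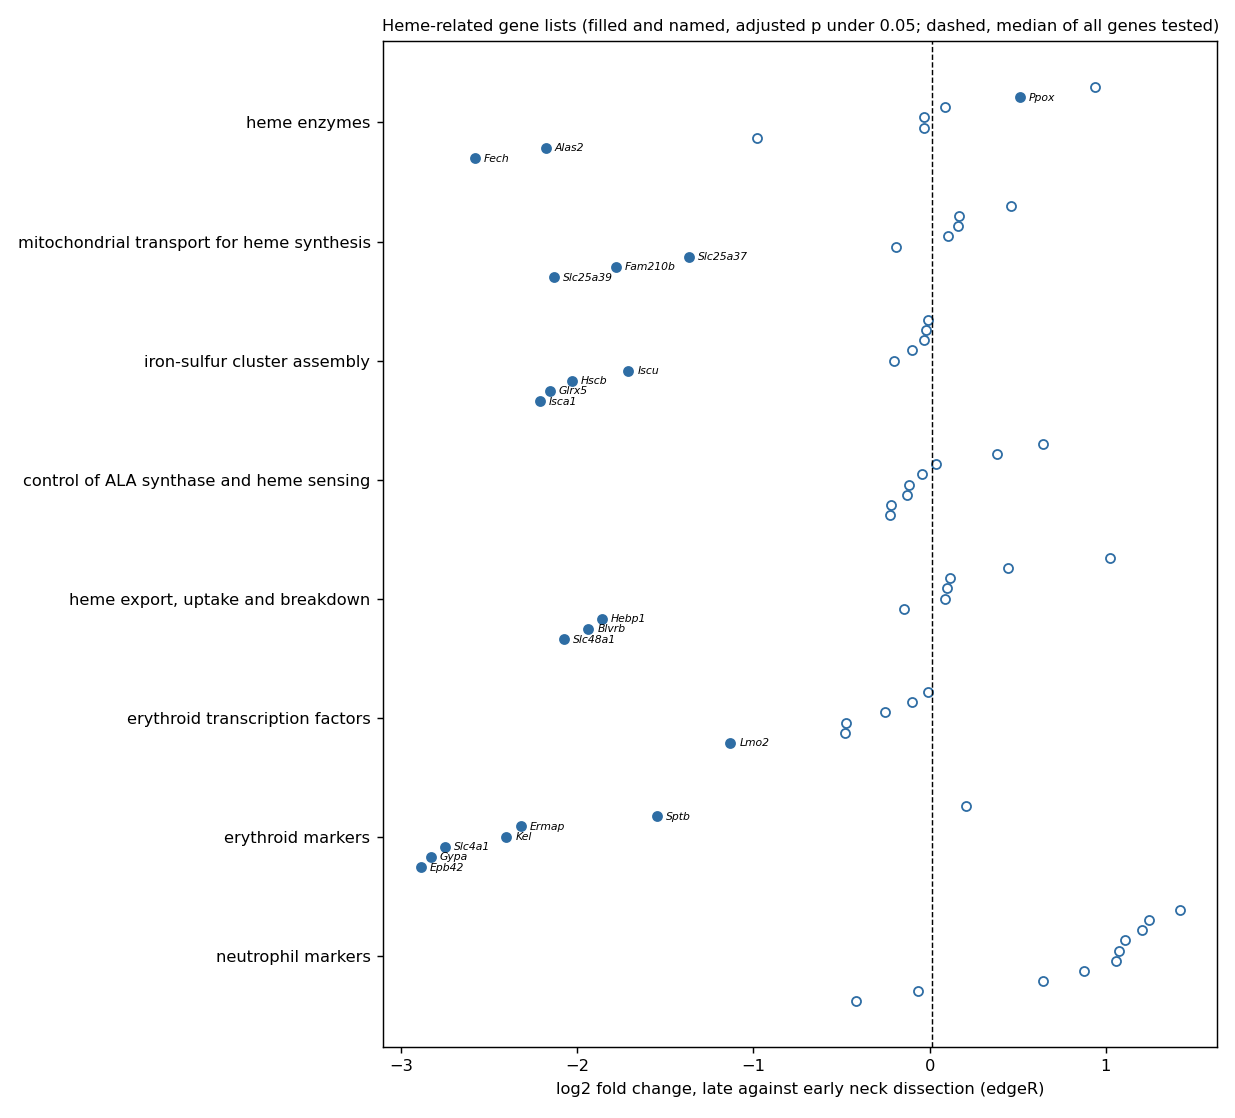
Log2 fold changes of late against early ND (x axis, edgeR) for the genes of 8 lists (y axis), with 1 point per gene, filled and named where the adjusted p was under 0.05, and a dashed line at the median of all genes (0.014). 1 of the erythroid markers is not shown. The called genes shown other than Ppox lie from Lmo2 at -1.13 to Epb42 at -2.89, and the points not called lie from -0.98 (Urod) to 1.42 (the neutrophil marker Retnlg).

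The genes whose log2 CPM was most like that of Alas2 over the 15 libraries, among 7004 genes of at least 10 CPM on average, were Apex2 (Pearson r = 0.999), Isca1 (0.992), Hbq1b (0.992) and Slc25a39 (0.992). Apex2 overlaps Alas2 on the opposite strand, so reads of either gene may have been counted for the other or for neither. Those most like Alas1 were Dgat1 (0.966), Tob1 (0.934), Wbp1l (0.933), Sos2 (0.930) and Tcn2 (0.929). Over the 12 libraries not poor in 18S sequence Apex2 (0.999) and Dgat1 (0.979) were still the most like, while Tob1 (0.942) and Tcn2 (0.936) had ranks of 12 and 18. The libraries share the group differences, depth and TMM factors described above, and these r are descriptions across libraries.

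Markers of blood cell types were read beside these results. Over all genes, 3163 of 13315 had an unadjusted p under 0.05 late against early ND and 2299 of 13547 against untreated mice. Without the libraries poor in 18S sequence the numbers were 3213 of 13440 and 1917 of 13051. Of 10 erythroid markers 8 were tested, and 7 fell after late against early ND (median -2.58), among them Epb42, a protein of the red cell membrane skeleton named after its values were seen (-2.89, edgeR adjusted p = 0.0178), while Epor, the erythropoietin receptor, was at 0.21 (edgeR adjusted p = 0.778). Their summed level was 64.2 to 132 CPM after late ND, 117 to 1094 after early ND and 162 to 1454 in untreated mice, and 5 of 8 fell against untreated mice. All 4 hemoglobin genes had negative values against early ND, of which 1 was called (Hbb-bt, -2.44, edgeR adjusted p = 0.0392). Of the 10 neutrophil markers edgeR called 0 and 7 had an unadjusted p under 0.05 (median 1.06), with sums of 5701 to 14899 CPM after late ND, 2450 to 7385 after early ND and 4533 to 11501 in untreated mice. In early ND against untreated mice all 10 neutrophil values were negative (median -0.85), 5 with an unadjusted p under 0.05 and 0 called. Over all genes 539 of 12151 had such an unadjusted p in that comparison, and 0 were called. Of 8 monocyte markers 2 rose after late against early ND, among them Csf1r (0.75, edgeR adjusted p = 0.0425). EdgeR called 0 of 8 T cell, 0 of 7 B cell, 0 of 5 platelet and 0 of 2 skin and gland markers tested, of which 1, 0, 1 and 0 had an unadjusted p under 0.05. Against untreated mice 3 of 8 monocyte markers rose, among them Csf1r (0.73, edgeR adjusted p = 0.0322), and 7 had an unadjusted p under 0.05 (median 0.64). All 8 T cell values were negative there (median -0.52), 7 with an unadjusted p under 0.05 and 1 called, the receptor chain Cd3g, named after its values were seen (-0.63, edgeR adjusted p = 0.0274). The neutrophil median there was -0.0094, with 0 called and 0 at an unadjusted p under 0.05, and edgeR called 0 of the B cell, platelet, and skin and gland markers, of which 0, 2 and 0 had an unadjusted p under 0.05. The erythroid median late against early ND was -2.53 without the libraries poor in 18S sequence, with 0 called and 8 of 8 at an unadjusted p under 0.05, and 1 of 8 monocyte markers then rose. For B cell markers the median was then -0.81, where it was -0.37 with all libraries, with 0 called and 6 of 7 at an unadjusted p under 0.05. Against untreated mice edgeR then called 0 markers, with 6 of 8 monocyte and 6 of 8 T cell markers at an unadjusted p under 0.05. Of the 10 erythroid markers 9 matched a counted gene. Among all markers that matched, only Gp1bb, of platelets, was at 0 in every group. The part of these cell types in the results on the heme enzymes was not tested.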

How the data were processed

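Per the labels, RNA of blood from each mouse was sequenced as paired ends and aligned with STAR 2.7.9 to GRCm39, sorted with SAMtools 1.7 and counted with HTSeq 0.13.5. The authors deposited raw read counts per gene, not normalized, with 1 file per mouse. The annotation release and the strand setting are not given in the sources used here. Rows that name no gene held 75.6% to 88.1% of a library's total and were left out. Of 55416 gene identifiers, 54749 matched a GRCm39 annotation (GENCODE), which gave symbols, positions and promoters. No 2 libraries were identical (0 pairs).

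Each pair of groups was fitted on its own with edgeR 4.0.16 (R 4.3.3): filterByExpr, TMM, quasi-likelihood test, Benjamini-Hochberg adjustment over all genes tested and a threshold of 0.05. Levels shown are TMM CPM over all 15 libraries. Within-library ratios of Alas2 (0.5 added to counts) went through exact permutation tests, two-sided (Python 3.11.15), over 252 splits and adjusted over 6 tests. The fit was tested on simulated data. P-values set a difference between groups against the spread between these mice. The members, lists and tests were chosen with earlier results of these data known. Every member is named, as is each called gene and the extremes of each related list late against early ND, and the 5 genes most like Alas2 and Alas1, except for genes not reported here. Alternatives included DESeq2 1.42.0, other scalings and filters, a replicate block and leaving out libraries.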

Additional observations from a re-analysis of the deposited data

Results flagged for a closer look

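Alad had a single high mouse in 2 groups. In untreated mice, untreated 5 had 18.5 CPM and the next highest mouse 8.04, a gap of 0.721 of the group's range. After late ND, late 5 had 12.5 CPM and the next highest mouse 5.35, a gap of 0.925 of the range. Both exceed Dixon's 95% critical value for 5 samples (0.71). Chance gives such a gap in about 1 of 20 groups, and 30 groups of values were examined.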

How the results depend on the processing

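Over 24 values of members (8 genes, 3 comparisons), 359 of 456 alternatives kept the direction and the side of the threshold, 44 lost the call, 9 gained one and 44 changed sign. Most of these values were not called as reported and had no call to lose, so the 359 says little about the calls. The sign changes include Alad (0.84, edgeR adjusted p = 0.0433) and Uros (0.82, edgeR adjusted p = 0.0289) late against early ND, which were called with library totals. The number of members called late against early ND, 3 as reported, was 7 with library totals (median of all genes 0.86), 5 with DESeq2's Wald test and 0 without the libraries poor in 18S sequence, where 4 members had an unadjusted p under 0.05. It was 1 to 4 with single mice left out, and 1 without late 3 or late 4 (Fech). Against untreated mice, 3 as reported, it was 0 without the libraries poor in 18S sequence (3 members with an unadjusted p under 0.05) and 0 to 3 with single mice left out. It was 0 for early ND against untreated mice under every alternative run. The counts of the related lists and markers without those libraries were added after seeing the data. The causes were not tested.

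Same-numbered mice were not taken as pairs, since in no comparison did all 5 correlations of their deviations exceed 0.1. The correlations were -0.18 to 0.46 for late and early ND, 0.035 to 0.58 for late ND and untreated (4 of 5 over 0.1, mean 0.25, where other pairs had a mean of -0.059) and -0.29 to 0.076 for early ND and untreated mice, and 1, 3 and 0 of 5 numbers best with their own. With the replicate block 1 member, Fech, was called late against early ND, with Alas2 at -2.07 (edgeR adjusted p = 0.0540) and Ppox at 0.51 (edgeR adjusted p = 0.0650), the count against untreated mice was 3, and Alas2 in early ND against untreated mice was 0.12. The log2 ratio of Alas2 to Alas1, late against early ND, was -3.06 under the block (exact permutation adjusted p = 0.188, where 5 pairs allow no unadjusted p below 0.0625), -3.41 without the libraries poor in 18S sequence and -3.39 to -2.72 with single mice left out, and against untreated mice -2.62 to -1.66. The ratio to hemoglobin was -0.26 late against early ND without the libraries poor in 18S sequence. With single mice left out it was -0.14 to 0.15 late against early ND, -0.020 to 0.30 against untreated mice and -0.036 to 0.28 for early ND against untreated mice.

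No value of a member that was called as reported changed sign under the alternatives run. With library totals Alad was 0.84, Uros 0.82 and Urod 0.0029 late against early ND, Alad 0.59, Uros 0.86 and Cpox 0.70 against untreated mice, and Alas2 0.14 in early ND against untreated mice. Without a filter on low counts Alad was 0.039 and Uros 0.046 late against early ND, and Uros 0.024 against untreated mice. Without the libraries poor in 18S sequence Alad was 0.19 late against early ND and Uros 0.072 against untreated mice. Alas1 against untreated mice was -0.010 under DESeq2 size factors, and also when all libraries had to hold 10 counts. With single mice left out, the ranges late against early ND were -0.0098 to 0.16 for Cpox, -0.14 to 0.10 for Uros and -0.44 to 0.31 for Alad. Against untreated mice they were -0.13 to 0.28 for Alas1, -0.12 to 0.072 for Uros and -0.75 to 0.28 for Alad. For early ND against untreated mice they were -0.37 to 0.38 for Alas2, -0.098 to 0.12 for Uros, -0.63 to 0.31 for Alad, -0.35 to 0.075 for Urod and -0.042 to 0.62 for Fech. Alad and Uros rest on 18 to 198 counts per library.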
